A study of Mus musculus with 86 samples.

Results

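The last exon of the mouse gene Tub was followed here through 1177 reporter oligos of 11955 in the pool, 697 with the wild-type sequence and 480 companions in which GU-rich motifs had been mutated. Members were chosen by name alone, as every oligo that carries the symbol Tub, and are called Tub-1 to Tub-697 after the number that the files give them. Each oligo is 260 nt long and starts 6 nt downstream of the one before it, so that neighbours share all but 6 nt and are not independent measurements or replicates of each other. In GRCm38 (mm10) the tiles run along the plus strand of chromosome 7, from chr7:109030124-109030383 for Tub-1 to chr7:109034300-109034559 for Tub-697. The exon spans chr7:109030124-109034460. Its first 131 bases are coding, so Tub-1 to Tub-22 start in coding sequence. The 3′ UTR, counted with the stop codon, starts at chr7:109030255. A shorter annotated isoform ends at 109030482, so most tiles lie in sequence that only the longer 3′ UTR holds. Tub-681 to Tub-697 reach past the annotated exon end, the last by 99 bases.

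Tub encodes tubby, a phosphoinositide-binding protein of neurons that takes part in moving receptors to cilia. TDP-43, encoded by Tardbp, is a mostly nuclear RNA-binding protein that recognises GU-rich RNA and takes part in splicing, RNA stability and RNA transport, and its mislocalisation is a hallmark of amyotrophic lateral sclerosis. A 3′ UTR can carry elements that bring an mRNA into neurites or that set its lifetime, and tiling it in reporters shows which stretch is sufficient for an effect on its own.

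The study asked which RNAs depend on TDP-43 for their place in neuronal cells. The reporter plasmids were transfected into mouse CAD cells, a line of catecholaminergic neuronal origin, and the cells were grown on porous membranes so that cell bodies (soma) and neurites could be collected apart. Wild-type and knockout cells are the same line, expanded from single cells: in both the endogenous Tardbp alleles were inactivated, and an HA-tagged TDP-43 transgene under a TetOff promoter was inserted by Cre recombination. Wild-type cells were left without doxycycline and knockout cells received it, at 2 µg/mL for 48 h per the labels, which turns the transgene off. The methods state another dose for the MPRA. The comparison is therefore of transgene on against transgene off in one genetic background, with doxycycline present only in the knockout.

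The pool was measured in several ways. In the massively parallel reporter assay (MPRA), unique molecular identifiers (UMIs) were counted for each oligo in soma and neurites, with 4 replicates of each compartment in each genotype. In RNA Bind-n-Seq (RBNS), the oligo RNAs were incubated in vitro with recombinant TDP-43 at 500, 50 or 5 nM in 2 replicates each, beside 1 library without protein (0 nM) and 1 input library. In the labelling experiment (SLAM-seq), RNA was marked with 4-thiouridine (4SU), which is read as T-to-C conversions, and collected at 0 h or 12 h of chase: wild-type cells gave 2 libraries at 0 h and 3 at 12 h, knockout cells 3 at each time, and 3 libraries had no 4SU. Poly(A) RNA-seq of soma and neurites, with 3 replicates per group, was available for CAD cells and for N2A, a mouse neuroblastoma line, both with the same transgene design.

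In the companions, each base of every GU-rich pentamer was replaced by its complement. The pentamers are the repeat GUGUG, the same repeat in its other phase, UGUGU, and a variant of it with a central A, which is GUAUG. Merged where they overlap, they form 24 runs along the Tub tiles. Companions exist for Tub-1 to Tub-176, Tub-195 to Tub-254, Tub-286 to Tub-328, Tub-387 to Tub-509, Tub-576 to Tub-618 and Tub-663 to Tub-697, so that Tub-255 to Tub-285 hold no such motif. The runs shown here, with flanks, are the single short run held by Tub-254 and the 3 longest runs of the exon, because the results differ between them. Capitals mark the motif run. The letters are those of the longest Tub transcript in GENCODE vM21 (GRCm38, plus strand, T for U), at chr7:109031634-109031663 for run 12, chr7:109030632-109030661 for run 4, chr7:109032827-109032856 for run 16 and chr7:109032846-109032875 for run 17.

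run 12: caagctcttgccTGTGTGccatctgtgaga

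run 4: tacagtgaGTGTGTGTGTATGtacagggca

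run 16: tctgtgtcTGTGTGTGTGTGTctgtctgtg

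run 17: gtctgtcTGTGTGTGTGTGTGTcgaggaaa

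Run 12 has 6 bases, runs 4 and 16 have 13 each, and run 17, the longest in the exon, has 15. Only 5 bases separate runs 16 and 17.

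Each MPRA library held 7923270 to 12208997 UMIs and each RBNS library 1806779 to 9646262 reads. A Tub oligo had 15 to 6805 UMIs in a library, with a median of 711. Tub oligos took 11.7 to 12.01% of the UMIs in wild-type libraries and 10.7 to 10.8% in knockout soma, but 7.28 to 7.90% in knockout neurites, where TMM factors were also lowest. All folds of the MPRA are relative to the pool after TMM scaling, and the part of this shift in them was not tested. In 62 Tub pairs, all with mutated positions at 104 to 171 of the oligo, wild-type and mutated oligo had nearly equal UMI counts summed over the libraries. The median absolute difference was 0.02 on the log2 scale, against 0.49 in the other 418. Such pairs are named where a result touches them. As the pool was measured in bulk, fewer cells with an oligo and less of its RNA per cell cannot be told apart. Replicate 1 of knockout SLAM-seq at 12 h stood apart from the other 2. Nothing in the labels says that replicates were separate cultures, so p-values measure the spread between these libraries only.

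In wild-type cells, neurite enrichment along Tub was concentrated in a single stretch. The localisation ratio (LR) is the log2 ratio of neurite to soma abundance, so that 1 means a doubling in neurites. Of 1177 oligos tested by edgeR's quasi-likelihood test at an adjusted p of 0.01, 31 were higher in neurites and 5 in soma, where 4.04% of the whole pool were called, 2.57% as higher and 1.48% as lower. The Tub share of higher calls is thus near that of the pool. Their position was not even: 23 of the 25 wild-type oligos that were higher are the unbroken stretch Tub-250 to Tub-272, at chr7:109031618-109032009, which all hold the 128 nt from 109031750 to 109031877. The other 2 were Tub-248, 2 steps upstream, with an LR of 0.26, and Tub-601, at 0.18. Since this stretch was delimited by these calls, its own LR is a description and not a test.

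Within the stretch the LR was 0.68 in the median and ran from 0.22 to 2.08. It began steeply. Tub-247 had an LR of 0.00 and Tub-249 one of 0.28, Tub-254 reached 2.01 ± 0.06 (SE, n = 4), Tub-255 reached 1.80 ± 0.06, and Tub-256 had the highest value, 2.08 ± 0.06. The LR then dipped to 0.57 at Tub-258, returned to 1.60 at Tub-260 and 1.74 at Tub-261, and formed a lower rise of 0.95, 1.06 and 1.19 at Tub-267, Tub-268 and Tub-269. At Tub-273, the first beyond the stretch, it was 0.15. Tiles that share nearly all of their sequence, such as Tub-256 and Tub-258, could therefore differ widely in LR.

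Tub-254, at chr7:109031642-109031901, gave 498, 585, 586 and 552 CPM (UMIs scaled to a common effective library size) in the 4 wild-type neurite libraries and 131, 139, 147 and 136 CPM in the 4 wild-type soma libraries. In knockout cells it gave 319, 290.0, 306 and 335 CPM in neurites and 133, 133, 150.3 and 145 CPM in soma. The soma values of both genotypes overlapped, whereas every knockout neurite library was below every wild-type one and above every soma library. Tub-255 behaved alike in kind, with 485, 561, 537 and 486 CPM in wild-type neurites, 148, 148, 153 and 144 CPM in wild-type soma, 299, 288, 302 and 317 CPM in knockout neurites and 154, 149, 175 and 158 CPM in knockout soma.

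Knockout lowered the neurite enrichment of this stretch without ending it. The LR of Tub-254 went from 1.93, 2.08, 2.00 and 2.02 in the wild-type replicates to 1.27, 1.12, 1.02 and 1.21 in the knockout. Its change in LR was -0.85 ± 0.09 (SE; edgeR, adjusted p = 1.91e-08). That of Tub-255 was -0.88 ± 0.08 (edgeR, adjusted p = 3.37e-09), the largest fall along Tub. The loss lay in neurites: Tub-254 fell there by 0.83 ± 0.06 on the log2 scale (edgeR, adjusted p = 1.38e-11), while its soma value differed by 0.02 ± 0.06 (adjusted p = 0.896). For Tub-255 these were -0.78 ± 0.06 in neurites and 0.10 ± 0.06 in soma (adjusted p = 0.415).

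Across the 23 oligos, 13 still passed as higher in neurites of knockout cells, with a median LR of 0.30 and a range from 0.08 to 1.32. Over all Tub oligos the LR in knockout cells was called higher in 19 and lower in 7, where 7.04% of the pool were called, 5.82% as higher and 1.22% as lower. The change in LR, which shares its wild-type libraries with the values that delimited the stretch, was called lower in 17 of 23, with a median of -0.50. In soma, where the comparison also uses the wild-type libraries behind that LR, 0 of the 23 were called in edgeR, also 0 at an unadjusted p under 0.05 and 0 in DESeq2. Their median was 0.01, from -0.06 to 0.12. Over all 1177 Tub oligos, 20 had a lower LR in the knockout and 0 a higher one in edgeR (20 higher at an unadjusted p under 0.05, and 0 in DESeq2), where 5.43% of the pool were called, 5.15% as higher and 0.277% as lower. Tub therefore held 20 of the 33 lower calls of the pool, and all 20 lay in this stretch, 17 as wild-type oligos and 3 as mutated companions. By comparison, the change in LR was called higher for 44 and lower for 11 of 640 Diras1 oligos, and higher for 81 and lower for 0 of 437 Lrrc47 oligos.

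The motif in Tub-254 sits at its upstream end, and mutating it took away part of the enrichment. The mutated companion gave 127, 128, 137 and 124 CPM in wild-type neurites against 70.6, 72.8, 75.7 and 65.3 CPM in wild-type soma. In knockout cells it gave 87.0, 95.3, 96.6 and 93.2 CPM in neurites and 76.8, 72.5, 82.6 and 73.4 CPM in soma. Neurites were above soma in all 8 pairs of libraries, by less than for the unmutated tile. The LR of the companion was 0.86 in wild-type cells and 0.29 in knockout cells. The LR difference between companion and wild-type oligo was -1.15 ± 0.07 (SE; limma, adjusted p = 2.4e-08), the single call among 480 Tub pairs, where 3.39% of all pairs in the pool were called, 2.55% as higher and 0.836% as lower.

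The neighbouring pairs that hold the same run further from their upstream end moved less. The LR differed between companion and wild-type oligo by -0.30 for Tub-250 (limma, adjusted p = 0.06), -0.13 for Tub-251, -0.20 for Tub-252 (adjusted p = 0.021) and -0.04 for Tub-253, which did not pass 0.01. All 5 mutated oligos from Tub-250 to Tub-254 were still called higher in neurites of wild-type cells, with a median LR of 0.44, and 3 of them in knockout cells. Tub-255 keeps only 4 of the 6 bases of run 12, holds none of the pentamers, and had the LR of 1.80 given above. The knockout still lowered the LR of mutated Tub-254, by 0.57 (edgeR, adjusted p = 1.74e-06). The change in LR differed between mutated and wild-type oligo in 0 of 480 Tub pairs in limma, with 21 at an unadjusted p under 0.05 and no other tool run, where 7.08% of the pool's pairs were called, 0.022% as higher and 7.06% as lower. For pair Tub-254 that difference was 0.28 ± 0.10 (limma, adjusted p = 0.166).

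The opposite change, more reporter RNA in knockout cells, marked a separate stretch 3′ of the first. Over all Tub oligos, 35 were higher and 2 lower in knockout soma, where 7.65% of the pool were called, 7.55% as higher, so the Tub share of higher calls was below that of the pool. In neurites 43 were higher and 25 lower, where 8.76% of the pool were called, 8.06% as higher and 0.696% as lower. With upper-quartile scaling, which lowers the neurite median of the pool from -0.02 to -0.16, the neurite split for Tub was 32 higher and 518 lower. Tub-415 to Tub-453, 39 neighbours at chr7:109032608-109033095, were all called higher in knockout neurites, and this delimited them. They share the 32 nt from 109032836 to 109032867, which hold runs 16 and 17 except for the first base of run 16.

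The upstream edge of this stretch fell where run 17 became whole in the tile. Its downstream edge fell where run 16 was leaving the tile. Other runs lie there too. Run 14 is mutated in companions Tub-387 to Tub-429 and run 15 in Tub-410 to Tub-451. Run 18 is mutated, at least in part, in Tub-443 to Tub-484. The part of each run in the results of this stretch was not tested. Tub-414, which holds run 16 whole but 9 of the 15 bases of run 17, had a knockout difference of 0.11 in soma and 0.09 in neurites. Tub-415, the first with both runs whole, was the first called. Tub-453 holds 12 of 13 bases of run 16 and all of run 17 and was the last called. Tub-454, with 6 of 13 and all of run 17, had -0.16 in soma and -0.01 in neurites. Values just inside are the calls themselves and add no test.

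In soma, which did not delimit the stretch, 30 of the 39 were called higher in knockout cells, with a median of 0.32 and a range from 0.17 to 0.47. In neurites the median was 0.41, from 0.26 to 0.60, with the highest value at Tub-433. For 5 of the 39, Tub-433 among them, the counts do not tell wild-type oligo and companion apart. As both compartments rose, the LR stayed even. In wild-type cells it was called for 0 of the 39 in edgeR, also 0 at an unadjusted p under 0.05 and 0 in DESeq2, with a median of -0.05. For the change in LR, 0 were called in edgeR, with 4 at an unadjusted p under 0.05 and 0 in DESeq2, and the median was 0.09. Under upper-quartile scaling 25 of the 39 stayed higher in soma and 31 in neurites.

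Tub-425 shows the pattern in single libraries. In wild-type cells it gave 36.9, 40.4, 38.0 and 35.9 CPM in neurites and 38.9, 34.2, 40.2 and 37.9 CPM in soma. In knockout cells it gave 57.9, 58.1, 47.6 and 55.1 CPM in neurites and 58.5, 52.1, 49.0 and 50.3 CPM in soma. No knockout library overlapped a wild-type one, and the difference was 0.47 ± 0.07 in soma (SE; edgeR, adjusted p = 9.13e-06) and 0.53 ± 0.07 in neurites (adjusted p = 3.82e-06). In soma, absence of overlap was a condition for listing this tile and adds no test. Its mutated companion gave 111, 115, 110 and 111 CPM in wild-type soma and 112, 123, 94.6 and 99.3 CPM in knockout soma. In the companion the genotypes overlapped, and its level in wild-type soma was nearly 3 times that of the unmutated tile. No library of the plasmid pool is among the MPRA samples. For any pair, unequal levels and unequal plasmid shares therefore cannot be told apart.

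Mutated companions of the stretch were not called as higher where the counts tell the pair apart. Of these 34 companions, 0 were called in soma and 0 in neurites by edgeR, with medians of -0.05 and -0.08. At an unadjusted p under 0.05 there were 3 and 4, all of them lower in the knockout, and DESeq2 called 0 in either compartment. The 5 companions at Tub-430 to Tub-434, whose counts match their wild-type oligos, had 3 calls in soma and 4 in neurites. The knockout effect was compared directly between the members of each pair, a test added after these values had been seen. Among 480 Tub pairs the mutated oligo rose less in 25 and more in 1 in soma (limma, where 12.1% of the pool's pairs were called as lower and 0.066% as higher). In neurites it rose less in 34 and more in 2, where 14.5% were called, 14.3% as lower and 0.242% as higher. Of the lower calls, 24 in soma and 30 in neurites were in this stretch, where the median differences were -0.38 and -0.50. For pair Tub-425 the difference in soma was -0.54 ± 0.08 (limma, adjusted p = 7.39e-05).

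Companion and wild-type levels at the 3′ side of the stretch differed in the other direction while the knockout response did the same. Tub-447 gave 71.3, 70.9, 79.5 and 76.6 CPM in wild-type soma and 97.5, 99.6, 93.8 and 94.7 CPM in knockout soma, without overlap. In neurites it gave 53.5, 80.7, 73.6 and 68.4 CPM in wild-type cells and 109, 102, 97.6 and 98.2 CPM in knockout cells. The neurite difference was 0.57 ± 0.08 (edgeR, adjusted p = 4.81e-06). Its companion, which was the less abundant of the pair, was not called in soma (-0.16 ± 0.09, edgeR, adjusted p = 0.381) or in neurites (0.03 ± 0.09, adjusted p = 0.909).

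The remaining long run gave no such rise. Run 4 is held whole by Tub-46 to Tub-87, and of these 42 tiles 0 were called higher in knockout soma in edgeR, also 0 at an unadjusted p under 0.05 and 0 in DESeq2, and 2 were lower, Tub-80 by 0.23 and Tub-84 by 0.21, with 17 lower at an unadjusted p under 0.05. In neurites 0 were called in edgeR, with 1 at an unadjusted p under 0.05 and 0 in DESeq2. The median was -0.16 in soma and -0.04 in neurites. The LR in knockout cells was called higher for 1 of the 42, with 9 higher at an unadjusted p under 0.05 (edgeR). Run 4 ends in GUAUG and has no second long run beside it, and the part of either in this difference was not tested.

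Few oligos outside both stretches were called. Tub-15 and Tub-16, which begin in the coding part of the exon, were lower in neurites of wild-type cells, with LRs of -0.28 and -0.31, and stayed so in knockout cells, at -0.31 and -0.28. Their mutated companions had LRs of -0.24 and -0.39 in wild-type cells. The soma rise of Tub-684, by 0.60, was the largest along Tub, and this tile reaches past the annotated exon end. Tub-659 rose in knockout soma by 0.28. No change in LR was called outside the first stretch.

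TDP-43 bound several parts of the Tub sequence in vitro, both stretches among them. R is the share of an oligo among bound reads divided by its share of input reads, so that 1 means no preference. The median R of the 697 wild-type oligos was 0.97 without protein, 0.96 and 0.90 in the replicates at 5 nM, 0.70 and 0.58 at 50 nM and 0.69 and 0.78 at 500 nM. An R of 4 or more was reached by 0 oligos without protein or at 5 nM, by 14 and 25 at 50 nM, and by 52 and 32 at 500 nM. From 5 to 50 nM the median tile thus lost share while a minority gained it.

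From 5 to 500 nM, 232 Tub oligos rose and 414 fell among 1175 tested (edgeR, adjusted p of 0.05), where 47.9% of the pool were called, 17.1% as higher and 30.8% as lower. Tub was thus near the pool on both sides. TMM scaling, which moves the median of the pool from -0.38 to 0.03, turned the split to 325 higher and 251 lower, and left 22 of 23 tiles of the neurite stretch and 39 of 39 of the other as risen. Stretches of risen wild-type tiles had medians of 1.50 to 2.25 on the log2 scale. Tub-66 to Tub-82 and Tub-84 to Tub-93 lay around runs 4, 5 and 6. Companions mutate these in Tub-45 to Tub-88, Tub-50 to Tub-92 and Tub-72 to Tub-114, and the part of each was not tested. Tiles upstream of Tub-66 that hold run 4 lay outside these stretches. Tub-242 to Tub-263 and Tub-265 to Tub-270 lay at the neurite stretch and just upstream of it. The others were Tub-412 to Tub-439 and Tub-441 to Tub-450 around runs 16 and 17, and Tub-475 to Tub-494 at runs 19 and 20. The longest fallen stretches were Tub-11 to Tub-36, Tub-360 to Tub-378, Tub-525 to Tub-544 and Tub-648 to Tub-667. The 3′ end fell most, with a median of -3.12 over Tub-690 to Tub-697.

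The concentration at which binding appeared differed between both stretches. Tub-418, in the knockout-sensitive stretch, had an R of 14.6 and 23.4 at 50 nM, and Tub-415 had 13.7 and 21.1. Tub-420 and Tub-418 also had the highest mean R at 500 nM among wild-type Tub tiles, 7.34 and 7.06. Binding at 50 nM declined downstream within the stretch: Tub-447 had 1.80 and 3.63 at 50 nM and 4.76 and 3.87 at 500 nM, and Tub-454, outside it, had 0.56 and 0.67 at 50 nM and 2.92 and 2.98 at 500 nM. Across the 39 tiles the median R was 0.91 without protein, 1.01 and 1.02 at 5 nM, 1.88 and 3.39 at 50 nM and 4.97 and 3.96 at 500 nM, and 37 of 39 rose from 5 to 500 nM.

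The neurite stretch bound at 500 nM only, and from a low start. Tub-254 had an R of 0.43 without protein, 0.34 and 0.37 at 5 nM, 0.14 and 0.12 at 50 nM, and 0.99 and 2.65 at 500 nM. It rose from 5 to 500 nM by 2.36 ± 0.40 (SE; edgeR, adjusted p = 0.000851), yet 1 of its 2 replicates at 500 nM was no higher than input. Tub-255, without a motif, had 0.37 without protein, 0.31 and 0.20 at 5 nM, 0.17 and 0.18 at 50 nM, and 1.32 and 3.16 at 500 nM, a rise of 3.11 ± 0.41 (adjusted p = 0.0003). Over the 23 tiles, 21 rose, with a median of 2.09, and the median R at 500 nM was 1.32 and 2.84. R was already under 1 without protein, at a median of 0.50, and the tiles were richer in A and poorer in C than Tub as a whole, with 30.9% A and 15.0% C against 23.7% and 23.6%.

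For pair Tub-254, no change in binding with the mutation passed. Mutated Tub-254 had an R of 0.36 without protein, 0.22 and 0.24 at 5 nM, 0.18 and 0.08 at 50 nM, and 0.59 and 1.66 at 500 nM. The rise from 5 to 500 nM differed between companion and wild-type oligo by -0.09 ± 0.39 (SE; limma, adjusted p = 0.877).

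Over 467 Tub pairs the mutation lowered the rise from 5 to 500 nM in 86 and heightened it in 24 (limma), where 22.4% of the pool's pairs were called, 18.1% as lower and 4.21% as higher. With the replicate number as a block the calls were 26 and 9. Leaving out either 500 nM library left 0 calls in limma, so the calls of single pairs need both. Lowered pairs lay in 10 of the 17 tiles from Tub-66 to Tub-82 and 15 of the 20 from Tub-475 to Tub-494. In the first of these, companions mutate runs 4 and 5, and from Tub-72 also run 6. In the second they mutate runs 19 and 20, and up to Tub-484 also run 18. Raised pairs lay in 7 of the 11 tiles from Tub-217 to Tub-227 and 6 of the 7 from Tub-394 to Tub-400. In the former, wild-type tiles had a median R of 0.37 and 0.39 at 500 nM and their companions 1.17 and 0.98. Companions of Tub-428 to Tub-441, in which runs 16 and 17 are mutated along with others, had hardly any input reads. The effect of mutation on binding could therefore not be measured in the core of that stretch. Of the companions of the stretch that the counts tell apart, 8 of 32 tested rose from 5 to 500 nM, and for pair Tub-451 the rise was larger in the companion, by 3.64 (limma, adjusted p = 0.043).

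The binding change from 5 to 500 nM and the response in cells did not run in parallel along the exon. At 50 nM, Tub-397 to Tub-440 had the highest median R among windows of 44 tiles, 1.83 and 2.48. Tub-45 to Tub-88, around run 4, had 1.37 and 1.61. A correlation of R at 50 nM with the response in cells was not tested. Run 4 tiles had 23 rises and 2 falls from 5 to 500 nM, and an R at 500 nM of 1.77 and 1.80 in the median, without a rise in knockout cells. Tub-479, at runs 19 and 20, had an R of 6.95 and 6.41 at 500 nM, among the highest on Tub, and lies outside both stretches called in the MPRA. Across the 697 overlapping wild-type tiles, the binding change and the soma difference had a Pearson r of 0.08 and a Spearman rho of -0.01. The binding change and LR in wild-type cells had 0.31 and 0.16, where the tiles share sequence and libraries.

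The estimated label of every tested wild-type Tub oligo fell from 0 h to 12 h in both genotypes. Among mutated companions the highest change in wild-type cells was 0.05 on the log2 odds scale. The comparison of this loss between genotypes depended on 1 library. The conversion rate over Tub oligos was 0.165 to 0.258% of T positions without 4SU, 2.01 and 1.98% in wild-type cells at 0 h and 1.21, 1.21 and 1.38% at 12 h. In knockout cells it was 1.86, 1.88 and 1.96% at 0 h and 1.42, 0.498 and 0.541% at 12 h. The first of these 12 h libraries was nearer to the wild-type libraries than to its own replicates, on the whole pool as on Tub. At 0 h the genotypes were near each other: 0 of 1065 Tub oligos were called in edgeR, also 0 at an unadjusted p under 0.05 and 0 in limma, as over the whole pool (0.0%).

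With all libraries, 1054 of 1065 Tub oligos lost label in knockout cells (edgeR, adjusted p of 0.05, where 97.2% of the pool were called), with a median of -1.52 on the log2 odds scale. In wild-type cells the median was -0.70 and 0 were called in edgeR, with 74 at an unadjusted p under 0.05 and 0 in limma, where 0.00946% of the pool were called. The change in loss between genotypes was called in 0 by edgeR, with 16 at an unadjusted p under 0.05 and 0 in limma, and its median was -0.81. Without the knockout library that stood apart, 1048 were called in wild-type cells, where 97.0% of the pool were, and 1064 in knockout cells, where 99.7% were. A larger loss in knockout cells was then called for 1060, where 96.3% of the pool were called, with a median of -1.35. The Tub shares are those of the pool, whose medians were -0.71 in wild-type and -1.50 in knockout cells with all libraries.

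The loss was uneven along the exon. Among windows of 44 tiles, Tub-353 to Tub-396 had a median rate of 1.93 and 1.89% in wild-type cells at 0 h and 1.01, 1.02 and 1.20% at 12 h. In knockout cells these tiles had 1.80, 1.78 and 1.87% at 0 h and 1.25, 0.309 and 0.376% at 12 h. Tub-573 to Tub-616 had like rates at 0 h, 2.04 and 2.01% in wild-type and 1.90, 1.85 and 1.97% in knockout cells, but kept more, with 1.33, 1.22 and 1.48% in wild-type and 1.47, 0.592 and 0.651% in knockout cells at 12 h. The second of these windows was above the first in every 12 h library of either genotype.

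The 3′ end, Tub-661 to Tub-697, was the lowest window in every 12 h library. It had 1.68 and 1.73% in wild-type cells at 0 h, 0.876, 0.826 and 1.01% at 12 h, and 1.03, 0.278 and 0.309% in knockout cells at 12 h. T made up 40.4% of these tiles. To compare tiles apart from the shift of the whole library, rates were also taken relative to the median of their library, without the knockout library that stood apart, a setting added after the values had been seen. On that scale the knockout loss was smaller than the library median in 260 and larger in 212 Tub oligos (limma), where 45.4% of the pool were called, 25.4% as smaller and 20.0% as larger. The change in loss was called as smaller in 94 and larger in 50, where 16.1% of the pool were called, 10.9% and 5.3%. By window, the knockout loss had a median of -0.42 for Tub-353 to Tub-396, 0.40 for Tub-573 to Tub-616 and -0.52 for Tub-661 to Tub-697.

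In both stretches label was lost in the knockout, as in 97.2% of the pool. All 23 tiles of the neurite stretch and all 35 tested wild-type tiles of the knockout-sensitive one were called in knockout cells. Tub-254 had 2.10 and 2.09% in wild-type cells at 0 h, 1.22, 1.30 and 1.44% at 12 h, and in knockout cells 1.87, 1.92 and 2.06% at 0 h and 1.47, 0.482 and 0.568% at 12 h. On the relative scale, the knockout loss was smaller in 12 of the 23 neurite-stretch tiles and larger in 1, and the change in loss was smaller in 5 and larger in 0 (limma, with 11 and 2 at an unadjusted p under 0.05). In the pool the shares were 25.4% smaller and 20.0% larger for the knockout loss, and 10.9% and 5.3% for the change in loss. In the knockout-sensitive stretch the knockout loss was smaller in 4 and larger in 2 of the 35 tiles, with a median of 0.01. There the change in loss on that scale was called for 0 in limma, with 2 at an unadjusted p under 0.05. On the rates themselves edgeR called it for 0 with all libraries, also 0 at an unadjusted p under 0.05, but as a larger knockout loss for 35 of 35 without the library that stood apart. In that last setting 96.3% of the pool were called. Of the 34 mutated companions that the counts tell apart, 24 had a smaller knockout loss and 0 a larger one on the relative scale (limma, also 24 and 0 at an unadjusted p under 0.05), and for 10 the change in loss was smaller. The difference in label loss between companion and wild-type oligo was not tested.

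The endogenous Tub mRNA of CAD cells lost its neurite enrichment in the knockout. It was at 126, 133 and 104 CPM in wild-type neurites and 72.9, 82.5 and 78.8 CPM in wild-type soma. In the knockout it was at 76.4, 86.0 and 89.1 CPM in neurites and 118, 112 and 108 CPM in soma. The LR was 0.79, 0.69 and 0.40 in the wild-type and -0.63, -0.38 and -0.28 in the knockout replicates, so the sign turned in all 3. The change in LR was -1.06 ± 0.12 (SE; edgeR interaction, adjusted p = 0.000158), where 0.432% of 17343 genes were called. Without replicate 2 it was -1.05 with an adjusted p of 0.0204 (edgeR), which does not pass 0.01. Soma rose by 0.53 ± 0.09 (edgeR, adjusted p = 0.00016) and neurites changed by -0.53 ± 0.09. The mRNA thus moved in both compartments, whereas the soma values of Tub-254 and Tub-255 were not called. The difference between mRNA and reporter was not tested.

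In N2A cells the mRNA was higher in soma in both genotypes. Wild-type cells had 172, 168 and 175 CPM in soma and 125, 119 and 119 CPM in neurites, and knockout cells 281, 272 and 251 CPM in soma and 192, 178 and 170 CPM in neurites. Its change in LR was -0.06 ± 0.10 (edgeR, adjusted p = 0.689), where 0.1% of genes were called, and the mRNA was higher in the knockout by 0.64 in soma and 0.58 in neurites. The difference between the cell lines was not tested. Tardbp itself, counted from all its transcripts, fell by 2.52 in soma and 1.89 in neurites of CAD cells and by 1.78 and 1.41 in N2A cells on the log2 scale. Of the markers checked in CAD cells, the neuronal genes Tubb3, Snap25 and Stmn2 were at 181 to 935 CPM. The catecholamine enzymes Th and Dbh were at 1.03 to 4.07 and 18.9 to 70.8 CPM, and the astrocyte and microglia genes Gfap and Cx3cr1 at 0.46 CPM or less.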

How the data were processed

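The authors deposited UMI counts per oligo for the MPRA (adapters trimmed with cutadapt, reads aligned with bowtie2, UMIs of 8 nt), read counts per oligo for RBNS, counts of T and T-to-C positions per oligo for SLAM-seq (PIGPEN), and estimated counts per transcript from Salmon for RNA-seq. The deposited estimated counts were summed to genes with GENCODE vM21 and rounded, whereas the methods name an earlier GENCODE release. Versions of the aligner, trimmer and counters are not given in the sources used here. Total counts per library are given with the results, and intervals and errors cover these libraries only.

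Models were fitted to the whole pool and p-values adjusted over it by Benjamini-Hochberg. MPRA used edgeR 4.0.16 in R 4.3.3 (TMM, filterByExpr, quasi-likelihood, threshold 0.01). Motif mutation was tested with limma 3.58.1 on log2((mutated + 0.5)/(wild type + 0.5)) for pairs averaging at least 10 counts. RBNS compared 500 with 5 nM in edgeR with total reads as library size (threshold 0.05), and R had 0.5 added to each count. SLAM-seq used edgeR's model for converted and unconverted counts, for oligos with at least 1000 T positions in each of the 11 labelled libraries (threshold 0.05). RNA-seq used the genotype by compartment interaction (edgeR, threshold 0.01). Alternatives were DESeq2 1.42.0, other scalings, filters, thresholds and pseudocounts, reads in place of UMIs, a replicate block, and each replicate left out. Scripts were tested on simulated data.

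Named are Tub-254 and Tub-255 with 10 tiles on each side and their companions, the 5 largest rises and 5 largest falls per test without overlap between groups, the 5 highest and 5 lowest by R at 500 nM, stretches of at least 5 called neighbours, windows of 44 tiles, Tub and Tardbp. The values of Tub-425, Tub-447, Tub-414, Tub-454, Tub-479, Tub-684, and the runs were picked after they were seen. Members and lists were chosen with earlier results of these data known. The methods name independent protein batches for RBNS without tying them to replicate numbers. SLAM-seq libraries at 0 h in wild-type cells numbered 2. RNA-seq of cells with overexpressed TDP-43 and of human cells was not used here.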

Additional observations from a re-analysis of the deposited data

Results flagged for a closer look

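The change in LR between knockout and wild-type cells was itself tested as an interaction and passed in edgeR for Tub-254 (-0.85), Tub-255 (-0.88), Tub-256 (-0.76), Tub-260 (-0.74) and Tub-261 (-0.67), the 5 Tub tiles with the largest falls. In all 5, every wild-type LR was above every knockout LR, but tiles were listed only where this held, so it adds no test. The endogenous Tub mRNA of CAD cells passed the same test, with -1.06. In mutated Tub-16, knockout neurite replicate 2 was far from the other 3 at 46.8 CPM. In mutated Tub-291, wild-type neurite replicate 4 was far from the others at 90.2 CPM. These were 2 of 104 groups of 4 libraries examined for a far sample, and chance marks about 1 in 20 groups.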

How the results depend on the processing

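Most values of single oligos kept their direction and their side of the threshold: 1135 did so, 121 fell below the threshold, 6 rose above it and 17 changed sign. Tub oligos called for LR in knockout cells were 26, and became 52 at a threshold of 0.05, 114 with upper-quartile scaling (11 higher and 103 lower) and 14 to 17 when a replicate was left out. Upper-quartile scaling gave 550 calls in neurites (32 higher and 518 lower) and a soma difference of -0.041 for Tub-254, which ranged from -7.07e-05 to 0.051 with a replicate left out. In the neurite stretch, higher calls in wild-type cells ranged from 21 to 23 of 23 and lower changes in LR from 12 to 19 over the alternatives, and soma calls stayed at 0.

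For motif mutation, LR pairs were 2 at a threshold of 0.05 and 1 to 2 with a replicate left out, and pairs with a change in LR were 2 and 0 to 1. Pairs with a different knockout response were 11 to 22 in soma and 20 to 29 in neurites with a replicate left out. In RBNS, 417 oligos were called at a threshold of 0.01, and 0 mutation pairs. With the replicate block 35 pairs were called, and 0 to 161 with a library left out, where a lone 500 nM library is assumed to vary like the other concentrations.

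In SLAM-seq, calls in wild-type cells ran from 0 to 1048 and for the change in loss from 0 to 1060 with a library left out, the upper values both without knockout replicate 1 at 12 h. Relative to the library median, 0 oligos were called for the knockout loss, and without that library 472, with 144 for the change in loss. On that scale, with all libraries and without that one, Tub-254 had 0.026 and 0.026 in wild-type cells, 0.10 and 0.13 in knockout cells and 0.072 and 0.10 for the change. Tub-255 had 0.10 in wild-type cells in both. Mutated Tub-254 had 0.16 and 0.22 in knockout cells and 0.20 and 0.26 for the change. The label of Tub-255 at 0 h differed by 0.019 on that scale and 0.018 with the replicate block.

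The change in LR of the Tub mRNA in CAD cells was -1.24 to -0.89 with a replicate left out, and without replicate 2 it was -1.05 with an adjusted p of 0.0204 (edgeR). In N2A it was 0.055 with upper-quartile scaling. Correlations of same-numbered deviations ran from -0.07 to 0.19 in the MPRA, -0.27 to 0.15 in RBNS and -0.02 to 0.01 in SLAM-seq. Such values cannot show whether same-numbered samples were paired. In RNA-seq every wild-type pair was above 0.1, at 0.15 to 0.34, but knockout pairs went down to -0.06. With the replicate block the change in LR of the mRNA was -1.06 in CAD (edgeR, adjusted p = 0.000314) and -0.07 in N2A. For RBNS mutation pairs the block took the calls from 110 to 35. It moved no other total by over 1.5 times, but LR calls in knockout cells went from 19 higher and 7 lower to 16 and 11. The cause of these changes was not tested, except that a stricter threshold or fewer libraries leaves fewer calls. Few input reads limit the RBNS values of companions Tub-428 to Tub-441, and 11 labelled libraries, 1 of them apart, limit the labelling results.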
